A study of Brassica rapa subsp. pekinensis with 2 samples.

Results

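Pectin methylesterases remove methyl groups from homogalacturonan, the main pectin of plant cell walls. The demethylated pectin can then be stiffened by calcium or cut by polygalacturonases and pectate lyases. In flowers, such enzymes are known from pollen grains and from the growing tip of pollen tubes. The values of 4 pectin methylesterase genes of Chinese cabbage (Brassica rapa subsp. pekinensis) are described here, out of 41019 genes with Bra identifiers in the deposited expression table. They are the genes that the authors' deposited pathway table lists under pentose and glucuronate interconversions and pairs with the Arabidopsis genes PPME1 (AT1G69940), PME31 (AT3G29090) or AT5G49180. Bra009265 and Bra028699 are both paired with PPME1, Bra036219 with PME31 and Bra020658 with AT5G49180. They are called copies or counterparts of these genes after the authors' pairing alone, which was not checked against a sequence. That table was built on genes the authors had called different between sterile and fertile buds. The differences below are therefore a description of genes chosen for differing, with no test.

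Messenger RNA was sequenced from flower buds of AB02, a male sterile AB line with a nuclear sterility inherited through multiple alleles. Fertile and sterile plants of such a line arise side by side as segregants. The sterile group was 1 library of buds from plants of the sterile genotype and the fertile group 1 library of buds from plants of the fertile genotype, both raised in a greenhouse from vernalized seed. The sources used here give neither the bud stage nor the number of plants per library. With 1 library per group no difference has a replicate check, and an effect of the bud stage or of the library cannot be told apart from one of the genotype. Levels are RPKM, read numbers divided by gene length and by the size of the library. They allow for length between genes and for depth between libraries, but not for libraries of unlike composition. The totals behind RPKM came to 1567647 reads in the sterile and 1803154 reads in the fertile library, if gene lengths are counted in steps of 3 bp as coding lengths are. Intervals below are 95% and cover counting error only. They treat reads as independent molecules, which reads are not, so they can be too narrow even for that.

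All 4 genes were expressed in fertile buds and were at or near 0 in sterile buds. Summed over the 4 genes, sterile buds held 0.669 RPKM and fertile buds 705 RPKM. In reads this was 1 read in the sterile and 1491 reads in the fertile library, the count of Bra036219 being a minimum. At the fertile level 1296 reads would have fallen on these genes in the sterile library. Since buds are a mixture of cell types, fewer cells that express these genes and less RNA per cell cannot be told apart.

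PPME1 is, in Arabidopsis, a pectin methylesterase of pollen that is needed for the regular shape and growth of the pollen tube. Bra009265, the more abundant of its 2 copies, stood at 0 RPKM in sterile buds (interval 0 to 2.14), where 3 reads would be 1.74 RPKM. In fertile buds it stood at 400.03 RPKM (interval 373 to 429). It had 0 reads in the sterile library and 792 reads in the fertile library. At its fertile level 689 reads would have been seen in the sterile library. Set against 3 reads, the bound on the fold was 230, a point value without the error of the fertile count. The counting interval of the fold itself reached down to 186.

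The other PPME1 copy, Bra028699, stood at 0 RPKM in sterile buds (interval 0 to 2.15), where 3 reads would be 1.75 RPKM. In fertile buds it stood at 168 RPKM (interval 150.5 to 187). Its counts were 0 reads in the sterile and 331 reads in the fertile library. The fold bound against 3 reads was 95.9, and the interval of the fold reached down to 77.6. Both copies were thus detected in fertile buds alone. Within the fertile library Bra009265 exceeded Bra028699 by 2.38 times (interval 2.09 to 2.71), so the copies differed in level beyond the counting error of independent reads. The sources used here do not say how the authors' counting assigned reads that fit both copies, so the ratio of the copies is uncertain where their sequences are alike. Their levels summed to 0 RPKM in sterile and 568 RPKM in fertile buds.

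AT5G49180 belongs to the same enzyme family and is known in Arabidopsis from the mucilage of the seed coat. Its counterpart Bra020658 stood at 0 RPKM in sterile buds (interval 0 to 1.37), where 3 reads would be 1.12 RPKM. In fertile buds it stood at 97.1 RPKM (interval 86.4 to 109). The counts were 0 reads in the sterile library and 300 reads in the fertile library. The fold bound against 3 reads was 86.9, and the interval of the fold reached down to 70.3. Although it had nearly as many reads as Bra028699, its level per length was lower, and Bra028699 exceeded it by 1.73 times (interval 1.48 to 2.03) in the fertile library.

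PME31 has been linked in Arabidopsis to tolerance of salt. Bra036219, its counterpart, was the only one of the 4 genes detected in sterile buds, at 0.669 RPKM (interval 0.0169 to 3.73), against 39.5 RPKM in fertile buds (interval 30.7 to 50.1). These values correspond to a minimum of 1 read in the sterile and 68 reads in the fertile library. The gene was 59.1-fold lower in sterile buds, and with 1 read the counting interval of this fold ran from 10.3 to 2369. That interval takes in the bounds of the other 3 genes, so the size of the difference could not be told apart between Bra036219 and the others at this depth. It was also the least abundant of the 4 in fertile buds, where Bra020658 exceeded it by 2.46 times (interval 1.88 to 3.25).

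**Figure D1:**
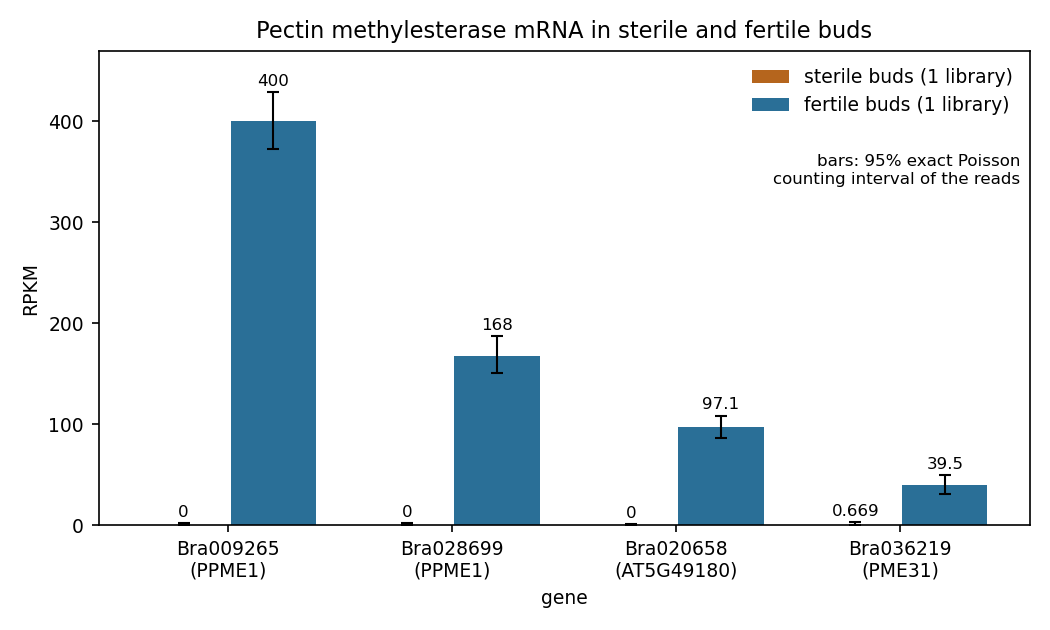
RPKM of the 4 pectin methylesterase genes in sterile buds (left bar of each pair) and fertile buds (right bar), 1 library each, with 95% exact Poisson counting intervals of the reads. The bars of fertile buds run from 39.5 to 400.03 RPKM, and sterile buds hold 0 RPKM for 3 genes and 0.669 RPKM for Bra036219.

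In fertile buds the order of the levels was Bra009265, Bra028699, Bra020658 and Bra036219, and the intervals of neighbours in this order did not overlap. Bra009265 alone made up 56.8% of the summed RPKM of the 4 genes. The 2 PPME1 copies were among the abundant mRNAs of the fertile library, at rank 464 for Bra009265 and rank 1328 for Bra028699 of 41019 genes. Bra020658 stood at rank 2408 and Bra036219 at rank 5554. The median RPKM over all genes was 3.07 in sterile and 3.44 in fertile buds. The bounds of the 3 genes at 0 follow this order too, but a bound rises with the reads in fertile buds and does not rank how completely the mRNAs were missing in sterile buds.

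The gene lengths behind the RPKM values, taken in steps of 3 bp, set Bra020658 apart from the 2 PPME1 copies. For Bra036219 only a minimum is known, which does not place it below Bra020658 in length. It came to 1713 bp or 571 codons, against 1098 bp (366 codons) for Bra009265, 1092 bp (364 codons) for Bra028699 and, as a minimum, 954 bp (318 codons) for Bra036219. The 2 PPME1 copies thus differed by 6 bp. Pectin methylesterases of plants come in a shorter form with the catalytic domain alone and in a longer form that also carries an inhibitor-like domain at its start. Which form each gene encodes was not tested.

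On the log2(RPKM + 1) scale, sterile minus fertile, the difference was -8.65 for Bra009265, -7.40 for Bra028699, -6.62 for Bra020658 and -4.60 for Bra036219. Their median of -7.01 stood beside a median of 0.17 over the 27940 genes with at least 1 RPKM in at least 1 library. Counted as lower when this difference was -1 or below, all 4 genes were lower in sterile buds, as were 14.5% of the genes kept. Because of the added 1, low levels look more alike on this scale than they are. In rank of the difference, from the lowest value upwards, Bra009265 stood at 61, Bra028699 at 130, Bra020658 at 205 and Bra036219 at 525 of 27940. The median of all genes lay slightly above 0, and rescaling by the median ratio shifted sterile buds by -0.20 on the log2 scale, which is small beside these differences.

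**Figure D2:**
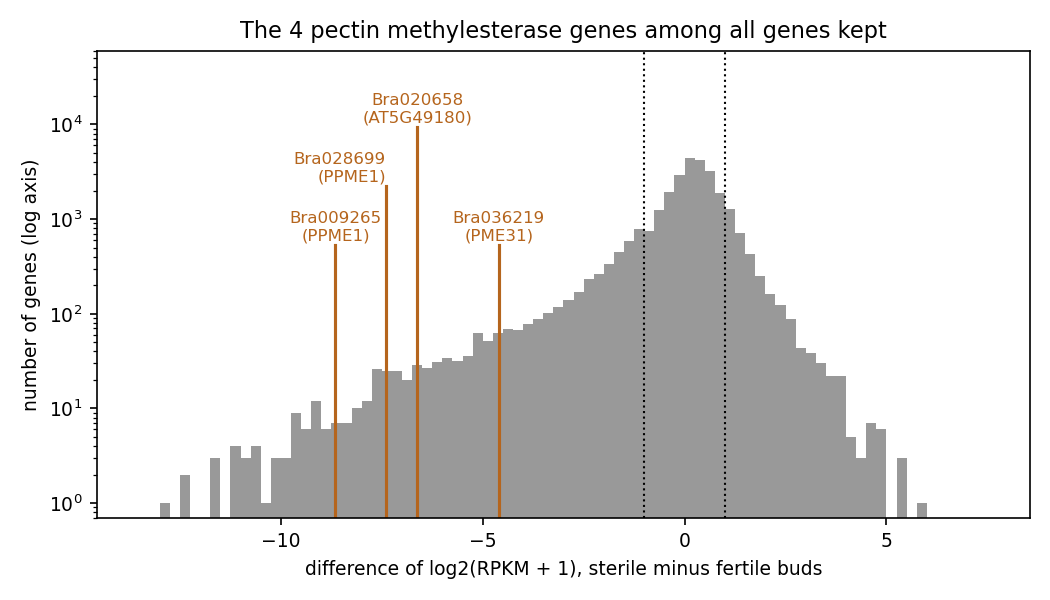
Number of genes (log axis) by the difference of log2(RPKM + 1), sterile minus fertile buds, over the 27940 genes kept, with dotted lines at -1 and 1. The coloured lines mark the 4 pectin methylesterase genes, which lie between -8.65 and -4.60 in the lower tail.

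The authors' deposited table gave, for fertile over sterile, a log2 fold change of 9.90 for Bra009265, 8.64 for Bra028699, 8.50 for Bra020658 and 6.12 for Bra036219. These values run the other way round from the differences above, so a positive value means lower in sterile buds. No fold can be measured against 0 reads. For the 3 genes at 0 in sterile buds the authors' value rises in proportion to the fertile reads alone. It and its place among the called genes therefore do not measure how far these mRNAs fell. By this fold change the authors' deposited table placed Bra009265 at 41, Bra028699 at 89, Bra020658 at 97 and Bra036219 at 397 of 1012 genes. Its q-value was 4.11e-75 for Bra009265, and the highest q-value of the 4 genes in the authors' deposited table was 4.75e-09 for Bra036219. The highest among all genes in the authors' deposited table was 0.000999. These q-values compare 2 libraries and not 2 conditions. The authors' deposited table took in 2.21% of all genes as lower in sterile buds. Of the 906 genes it lists as lower there, 52.4% had 0 reads in the sterile library, and among the 4 pectin methylesterase genes 3 had. In fertile RPKM among these 906 genes, Bra009265 stood at rank 99, Bra028699 at 189, Bra020658 at 314 and Bra036219 at 560. The median of the 906 genes was 58.3 RPKM in fertile buds.

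The other genes listed in the same pathway are mostly enzymes that cut pectin. The list holds 20 genes for 11 Arabidopsis codes, and the 4 pectin methylesterase genes account for 3 of these codes and for 20.6% of the summed RPKM of the list in fertile buds. Of the other 16 genes 16 were lower in sterile buds by the same rule of size, and 14 of them were at 0 there. That these 16 genes differ follows from how the list was made, since the authors drew it from genes they had called. Their direction and their levels of 0 do not follow from it. The authors' 1012 calls, however, pointed to a lower level in sterile buds for 89.5%, and 52.4% of those lower genes had 0 reads there. On the log2(RPKM + 1) scale the 16 genes had a median difference of -5.03, against -7.01 for the pectin methylesterases and -4.84 for the 906 genes listed as lower. By class the median was -7.17 for the 5 polygalacturonases and -4.41 for the 9 pectate lyases. The pectin lyase family gene stood at -9.18 and the aldehyde dehydrogenase gene at -3.74. For a gene at 0 in sterile buds this difference depends on its level in fertile buds alone.

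Polygalacturonases cut demethylated pectin. Their 5 genes, 4 copies of PGA4 and 1 of ADPG1, were at 0 RPKM in sterile buds and ranged from 12.8 to 959 RPKM in fertile buds. Pectate lyases cleave the same substrate by elimination and include AT59, a pollen gene. Their 9 genes ranged from 0 to 0.463 RPKM in sterile buds and from 11.1 to 123 RPKM in fertile buds. The pectin lyase family gene Bra012756 (AT1G30350) stood at 0 RPKM in sterile and 579 RPKM in fertile buds. Bra024619 (ALDH2B7), an aldehyde dehydrogenase that does not act on pectin, was the gene of the list with the highest level in sterile buds, at 4.75 RPKM, against 75.7 RPKM in fertile buds. Among the 20 genes by fertile RPKM, Bra009265 stood at place 4, Bra028699 at 5, Bra020658 at 8 and Bra036219 at 13.

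**Figure D3:**
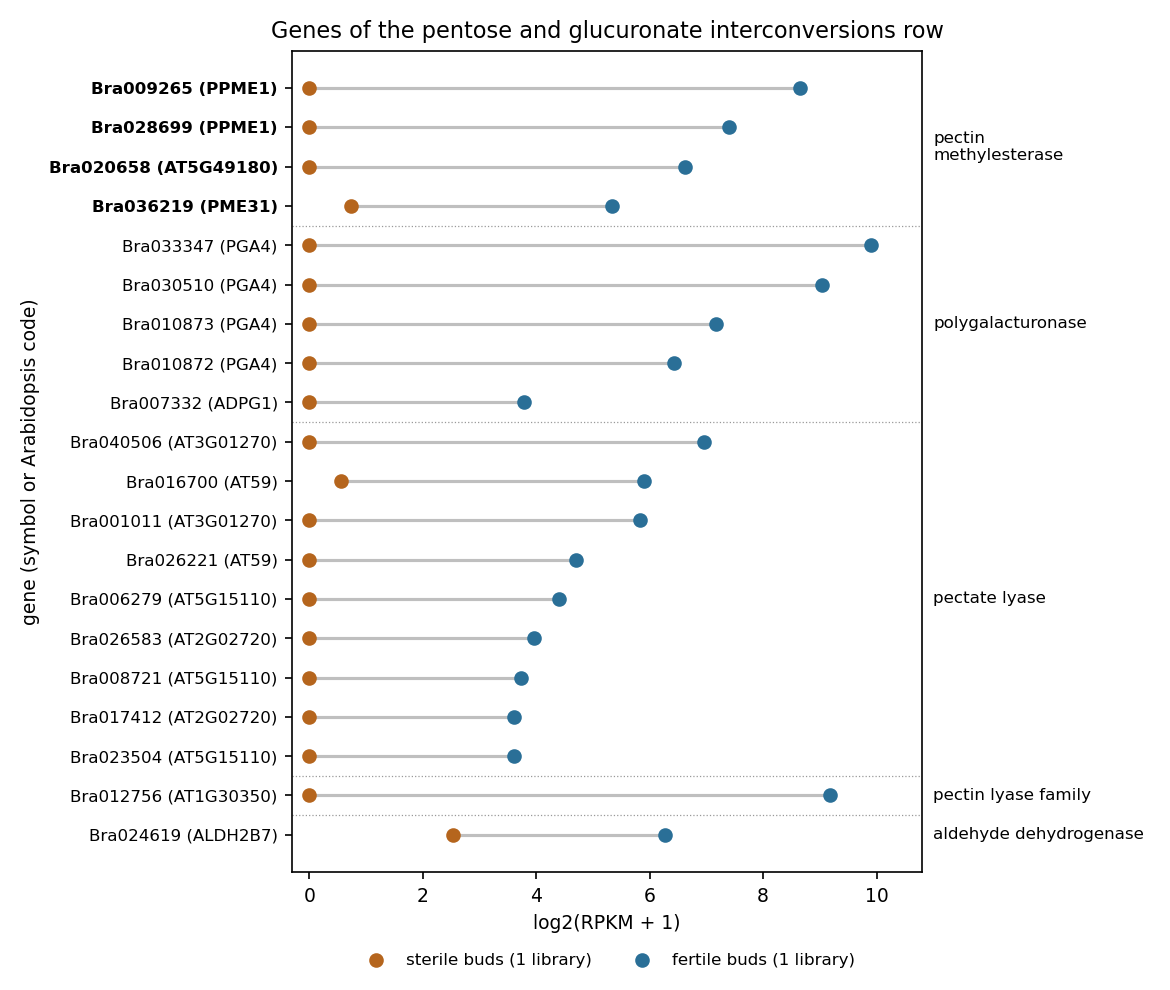
Level on the log2(RPKM + 1) scale in sterile buds (brown) and fertile buds (blue), 1 library each, for the 20 genes listed under pentose and glucuronate interconversions, grouped by enzyme class, with the pectin methylesterases in bold. The sterile value lies below the fertile value in each of the 20 genes, and 17 of them are at 0 in sterile buds.

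The 4 genes also stand in 2 further entries of the authors' deposited pathway table, starch and sucrose metabolism and the broad entry of metabolic pathways. In the authors' deposited table the corrected p-value was 0.000678 for pentose and glucuronate interconversions, 0.805 for starch and sucrose metabolism and 1 for metabolic pathways. A search of the deposited tables for the codes of 26 Arabidopsis pectin methylesterase genes and for the enzyme's name in the descriptions matched 0 genes beyond these 4. Codes were paired with called genes alone, and with only 225 of the 1012 called genes. Pectin methylesterase genes among the called genes without a code carry no name here and could not be found by code. The same holds for those that did not differ between the buds, and neither were analysed here. How many members of the family kept their level in sterile buds was therefore not measured. Of 4 late pollen markers sought by code (PPME1, VGD1, AT59 and PGA4), 3 were paired with genes, 8 genes in all, and 7 of the 8 were at 0 in sterile buds. Of these 8 genes 2 are the PPME1 copies and the other 6 belong to the same pathway list of called genes. That they differ between the buds follows from how they were chosen. Their direction does not, but 89.5% of all called genes were lower in sterile buds.

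The genes with the most similar values were sought among the 221 other genes with a code, by the Euclidean distance of log2(RPKM + 1) over the 2 libraries. Closest to Bra009265 were Bra024610 (AT1G23670), at 0 RPKM in sterile and 409 RPKM in fertile buds, and Bra025637 (AT5G39870), which carries the DUF1216 domain of unknown function, at 0 RPKM in sterile and 353 RPKM in fertile buds. Closest to Bra028699 were Bra035803 (AT3G20220), listed by the authors under plant hormone signal transduction, at 0 RPKM in sterile and 163 RPKM in fertile buds, and Bra038559 (AT2G19000), at 0 RPKM in sterile and 162 RPKM in fertile buds. For Bra020658 they were Bra032226 (AT1G47980), at 0 RPKM in sterile and 97.8 RPKM in fertile buds, and Bra036291 (AT4G02140), at 0 RPKM in sterile and 98.2 RPKM in fertile buds. These pairs lay within 0.182 log2 units of the pectin methylesterase gene. Closest to Bra036219 were Bra003378 (AT3G59480), listed under starch and sucrose metabolism, at 0.650 RPKM in sterile and 35.6 RPKM in fertile buds, and Bra030706 (APX1), an ascorbate peroxidase, at 0.847 RPKM in sterile and 51.6 RPKM in fertile buds, at distances of 0.15 and 0.40 log2 units. Likeness over 2 libraries rests on 2 values per gene.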

How the data were processed

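Flower bud mRNA of 1 sterile and 1 fertile library was measured by RNA sequencing. Per the submitters' processing notes the reads went through TopHat, and the sources used here give no version, genome build, annotation or counter. The authors deposited RPKM per gene, per the file headers. They also deposited a comparison with p-values, q-values and log2 fold changes of fertile over sterile, and a pathway table with Arabidopsis codes and enrichment p-values. Ribosomal RNA features were left out, which left 41019 genes.

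The members and lists were chosen with earlier results of these data known. Reads of genes at 0 in 1 library were recovered from the authors' fold changes, which were whole multiples of 1 step within 1.8e-08 (tolerance 0.0001). Each library total is the greatest common divisor of reads over RPKM, at a length step of 3 bp. At a step of 1 bp the totals would be 4702941 reads in the sterile and 5409462 reads in the fertile library, and lengths shorter in proportion. For genes above 0 in both libraries the lowest pair of whole read numbers that matches the RPKM values was taken as a minimum. Recovery was tested on simulated data. Genes with at least 1 RPKM in a library were kept, and a difference of at least 1 in log2(RPKM + 1) counted as lower or higher. Fold intervals are 95% Clopper-Pearson and level intervals exact Poisson (Python 3.11.15, scipy 1.17.1). For a gene at 0 the fold is a bound against 3 reads. Named genes were the members, the pathway list and the 2 coded genes nearest to each member. Other pseudocounts, scalings, filters and floors were tried. Gene sequences and coordinates were not used here.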

Additional observations from a re-analysis of the deposited data

How the results depend on the processing

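The direction of the 4 genes was the same under each pseudocount and scaling tried, and the size on the log scale depended on the pseudocount. The unchanged direction says little, because no pseudocount can turn a difference round and no scaling can move a gene at 0. With a pseudocount of 0.1 the difference, sterile minus fertile, was -11.97 for Bra009265, -10.72 for Bra028699, -9.93 for Bra020658 and -5.69 for Bra036219, with a median of -10.32 for the 4 genes and -7.82 for the other 16 of the list. With 0.5 it was -9.65 for Bra009265, -8.40 for Bra028699 and -7.61 for Bra020658, with medians of -8.00 and -5.81 in the same order. A gene at 0 has no lower limit on this scale, so these shifts come from the construction of the scale. Median ratio and trimmed mean scaling left the genes at 0 where they were and moved Bra036219 to -4.68 and -4.69. A floor of 1 read raised the bounds to 689 for Bra009265, 288 for Bra028699 and 261 for Bra020658. The length step cancels out of a fold, so a step of 1 bp could change none. Over all genes kept, 55.6% of those passing the rule of size were lower in sterile buds, 51.5% with a pseudocount of 0.1, 65.8% after median ratio scaling and 67.3% after trimmed mean scaling. No replicate could be left out with 1 library per group. No paired analysis was possible because each group has 1 library. Depth limits the statements on sterile buds. For the 3 genes at 0, 3 reads would be between 1.12 and 1.75 RPKM, and the upper interval ends lay between 1.37 and 2.15 RPKM.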

Other observations

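The identifiers numbered next to the 4 genes were looked at after the values had been seen, and whether neighbouring numbers are neighbours in the genome was not tested. Among the 20 identifiers within 10 of each gene, 4 were called by the authors for Bra028699, 2 for Bra009265, 2 for Bra020658 and 0 for Bra036219. Together these were 8 of 80 identifiers, all of them lower in sterile buds, beside 2.21% of all genes listed as lower there, and no test was made. Near Bra028699 they were Bra028691, Bra028692 (AT5G07571), Bra028693 and Bra028698, the number just before Bra028699. All of these were at 0 RPKM in sterile buds. In fertile buds Bra028691 stood at 6991 RPKM, Bra028692, an oleosin gene, at 2401 RPKM, Bra028693 at 12.1 RPKM and Bra028698 at 37.3 RPKM. Near Bra009265 they were Bra009255, at 0 RPKM in sterile and 4995 RPKM in fertile buds, and Bra009256 (AT5G07572), at 0 RPKM in sterile and 118 RPKM in fertile buds. Both PPME1 copies thus had identifiers numbered close to genes paired with neighbouring codes of Arabidopsis chromosome 5, while the code of PPME1 itself is on chromosome 1. As background, other pectin methylesterase genes of Arabidopsis (AT5G07410, AT5G07420 and AT5G07430) have codes close to AT5G07571 and AT5G07572. Whether Bra009265 and Bra028699 are nearer in sequence to one of these than to PPME1 was not tested, and the pairing with PPME1 is the authors'.

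Not every identifier near these genes differed between the buds. Bra009260, which lies between Bra009256 and Bra009265 in number, stood at 146 RPKM in sterile and 151 RPKM in fertile buds, and Bra028697, numbered 2 before Bra028699, at 46.4 RPKM in sterile and 50.7 RPKM in fertile buds. Near Bra020658 the called genes were Bra020664, at 0 RPKM in sterile and 19.99 RPKM in fertile buds, and Bra020665, at 0 RPKM in sterile and 140 RPKM in fertile buds. Bra036220, the number after Bra036219, stood at 0.917 RPKM in sterile and 18.3 RPKM in fertile buds and was not called by the authors.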
